A study of Mus musculus with 8 samples.

Results

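Replication-dependent histone genes encode the linker histone H1 and the core histones H2A, H2B, H3 and H4 that wrap newly copied DNA. They are grouped in clusters, are transcribed mainly in S phase, and most give a single-exon mRNA that ends at a conserved hairpin instead of a poly(A) tail. Some members can also be read through into longer, polyadenylated transcripts, which have been described in cells that have left the cycle. Replacement histones, such as H3.3 and H2A.Z, are encoded by separate genes that are used throughout the cycle.

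The genes described here were all rows whose symbol begins with Hist1h, Hist2h, Hist3h or Hist4h, which gave 59 of the 18957 genes listed. The family was chosen after the genotype contrast had been seen, because of the differences that contrast shows, with Hist2h2ac among the genes called. The genotype values of these 59 genes are therefore given as a description. Where the text says that a member is called or passes a p-value, this tells where it falls in the fit over all genes and is not offered as a test of the family. Of the 59, 52 lie in the Hist1 cluster on chromosome 13, 5 in the Hist2 cluster on chromosome 3, 1 (Hist3h2a) on chromosome 11 and 1 (Hist4h4) on chromosome 6. By class, 6 encode H1, 14 encode H2A, 16 encode H2B, 10 encode H3 and 13 encode H4. The annotation holds 67 protein-coding genes with such names, and the other 8 were not analysed here.

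RNA was sequenced from PDGFRA+ cardiac fibroblasts, sorted from the ventricles of 3- to 4-week-old mice of a mixed C57BL/6 strain as lineage-negative, DAPI-negative cells. There were 4 WT libraries, from mice with wild-type alleles and no Cre, and 4 Pdgfra-Cre:LmnaF/F libraries, from mice in which a Pdgfra-Cre transgene deletes floxed exon 2 of both Lmna alleles (genotype label Lmna-KO). The Cre was also active in a subset of cardiac myocytes, and mice carrying Cre alone are not among the groups compared, so deletion of Lmna and presence of Cre cannot be told apart. The libraries were made from ribosomal-RNA-depleted total RNA, which keeps transcripts that have no poly(A) tail.

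Library totals ranged from 2080555 to 12502949 counts, and WT replicate 2 was the shallowest. In counts scaled to library size (CPM), the targeted gene Lmna stood at 331, 274, 483 and 374 in the WT libraries (listed here and below in the order of replicates 1 to 4) and at 126, 97.4, 130 and 90.4 in the Pdgfra-Cre:LmnaF/F libraries. It fell by 1.72 on the log2 scale (SE 0.22, edgeR adjusted p = 0.00492). The 8 fibroblast markers summed to between 80940 and 96810 CPM in every library. Pdgfra-Cre:LmnaF/F replicate 4 stood apart in 2 other lists. The 5 cardiac myocyte markers, all tested, summed to 2919 CPM there against 174 to 592 CPM in the other libraries, with every one of them highest in this library (Myh6 at 2046 CPM). The 6 leukocyte markers summed to 369 CPM against 35.2 to 151 CPM, with 4 of them (Lyz2, Cd68, Csf1r and Ptprc) highest there and the T cell gene Cd3e at 0. The 5 endothelial markers all had negative log2 fold changes (median -0.46), with sums of 157 to 241 CPM in WT and 83.7 to 185 CPM in Pdgfra-Cre:LmnaF/F. The 3 erythroid markers ranged from 30.7 to 337 CPM in WT and from 14.7 to 584 CPM in Pdgfra-Cre:LmnaF/F, highest in replicate 1. The part of these cells in the results was not tested.

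The hairpin that ends a histone mRNA is shown first because it is the feature that most members share and the symbol rule did not use. Of the 46 genes with at least 16 annotated bases after the stop codon, 39 hold a perfectly paired stem and loop of 16 bases. The search was for GG, any 4 bases, TTT, any base and a second arm of the stem that ends in CC. A G opposite a T was also accepted as a pair in the stem. In contrast, this search found a sequence after the stop codon in 63 of 21059 other protein-coding genes (0.299%). The median start of the hairpin was 32 bases after the stop codon, with a range of 22 to 55. A set of 6 that the results turn on is printed as DNA, 5′ to 3′ on the mRNA strand of the GENCODE transcripts, with the stem and loop in capitals.
Hist2h2ac: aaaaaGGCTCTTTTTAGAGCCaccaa
Hist1h1c: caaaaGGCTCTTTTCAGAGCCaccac
Hist1h3c: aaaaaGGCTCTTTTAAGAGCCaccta
Hist4h4: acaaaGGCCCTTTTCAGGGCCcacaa
Hist1h4c: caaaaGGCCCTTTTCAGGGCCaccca
Hist2h4: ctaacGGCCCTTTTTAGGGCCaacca
The stem differed between H4 and the other classes. All 28 hairpins of H1, H2A, H2B and H3 genes begin with GGCTC, whereas none of the 11 of H4 genes do. Of the latter, 9 begin with GGCCC and 2 with GGTCC. Hist2h2ac was the one gene outside the H4 class with the stretch TTTTTA in its hairpin, which 2 H4 genes also hold.

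The length annotated after that point differed widely. In 21 of the 59 genes, 300 or more bases are annotated after the stop codon, and in 38 the model is shorter. A hairpin was found in 17 of the 21 long models, which run on past it, and none in Hist1h2br, Hist1h2bq, Hist2h2be and Hist1h2bc. This cut at 300 bases was chosen after the values were seen, and the results below are grouped by it as a description. Of the 59 genes, 54 have a single exon. Because members resemble each other, 48 share at least one exact stretch of 150 bases (the read length) with another annotated gene, and 18 share over 50% of theirs, so that reads from them can be split or lost in counting. Hist2h2ac, Hist2h2be, Hist2h4, Hist1h4d and Hist1h1c share none. All 14 H2A genes and Hist1h4b have another gene annotated on the opposite strand, and 4 members (Hist3h2a, Hist1h2ac, Hist1h2be and Hist1h1e) overlap another gene on their own strand. Whether the counting used strand is not given in the sources used here, so reads of such pairs may not be told apart.

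In all, 40 of the 59 genes passed the count filter, with 22 higher and 18 lower in Pdgfra-Cre:LmnaF/F. Their median log2 fold change was 0.13, against 0.02 over the 13036 genes tested. Without Pdgfra-Cre:LmnaF/F replicate 4, more of these 40 were lower than higher. Without WT replicate 2, most of them were higher. One member, Hist2h2ac, was called at an adjusted p under 0.05, and 0.407% of all tested genes were. At an unadjusted p under 0.05 there were 10 members, 7 higher and 3 lower, while 11.9% of all tested genes passed that mark. In 3 tested members (Hist2h2ac, Hist2h4 and Hist4h4) every Pdgfra-Cre:LmnaF/F library lay above every WT library, and in 1 (Hist1h4f) every one lay below. Over all tested genes the genotypes did not overlap in 8.03%, with Pdgfra-Cre:LmnaF/F above in 4.06%. Nothing is read from these shares, because the contrast was used to choose the family. The other 19 members reached at most 57 counts in a library.

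**Figure D1:**
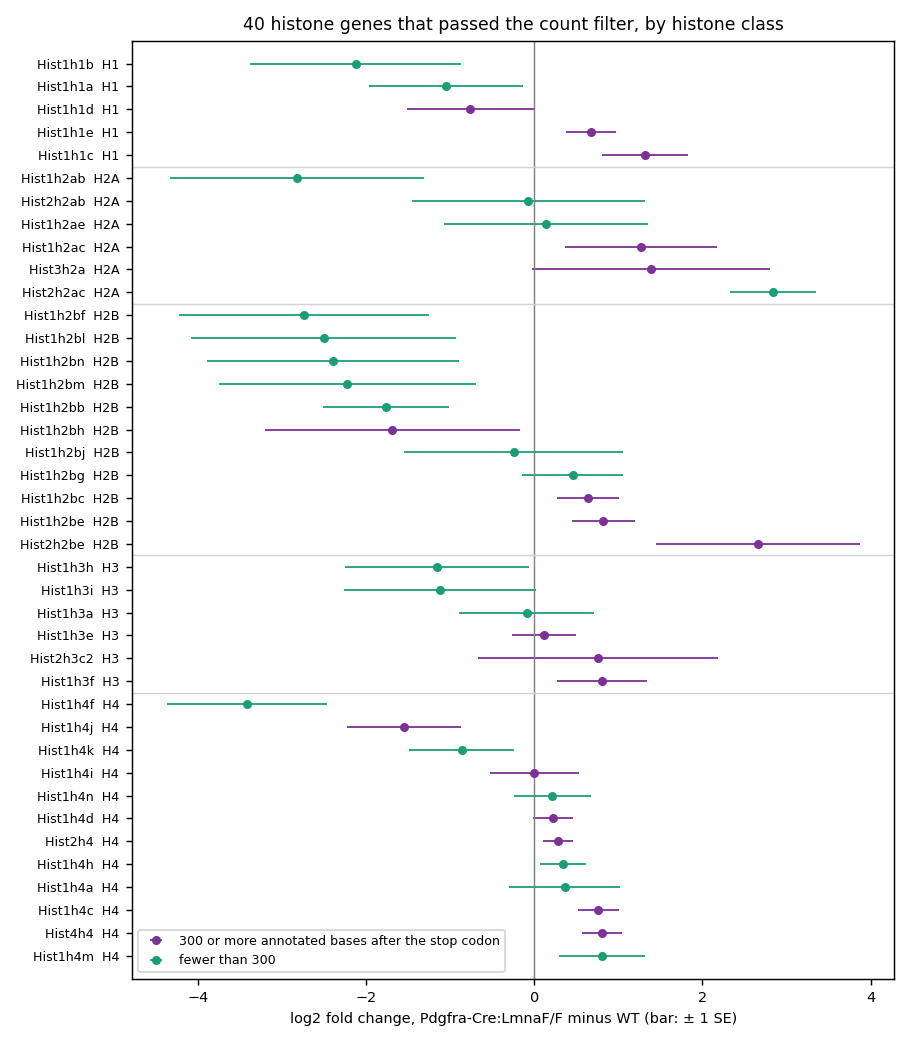
The log2 fold change (Pdgfra-Cre:LmnaF/F minus WT, x axis) is drawn with ± 1 SE for the 40 members that passed the count filter, ordered within each histone class and colored by the length annotated after the stop codon. Hist2h2ac lies at 2.84 and Hist1h4f at -3.42, and 15 of 18 long models but 7 of 22 short ones lie above 0.

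In CPM summed over members, the family took 1467, 2458, 2235 and 1711 in WT and 1679, 2506, 2744 and 3594 in Pdgfra-Cre:LmnaF/F. The ratio of the means was 1.34, with 1.46 when WT replicate 2 was left out and 1.17 when Pdgfra-Cre:LmnaF/F replicate 4 was left out, and the groups overlapped. Because these are bulk samples, fewer cells of a type and less RNA per cell cannot be told apart. Expression was concentrated in a few genes, as 6 members (Hist1h4d, Hist4h4, Hist2h4, Hist1h1c, Hist1h1e and Hist1h4c) held 77.6% of the summed CPM. Per kilobase of exon, the highest mean levels in WT were 472 CPM for Hist1h4d, 222 for Hist1h4h, 179 for Hist2h4, 129 for Hist1h4c and 107 for Hist4h4, all of them H4 genes.

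The Hist1 cluster summed to 970, 1781, 1545 and 1139 CPM in WT and 948, 1419, 1728 and 2645 CPM in Pdgfra-Cre:LmnaF/F. The genotypes overlapped over most of their range, and the ratio of means of 1.24 became 1.01 without Pdgfra-Cre:LmnaF/F replicate 4. Of its 33 tested genes, 16 were higher and 17 lower. Without WT replicate 2, most of these 33 were higher, and without Pdgfra-Cre:LmnaF/F replicate 4, most were lower. The Hist2 cluster summed to 275, 305, 312 and 317 CPM in WT and 348, 443, 419 and 427 CPM in Pdgfra-Cre:LmnaF/F, a ratio of 1.35 that was 1.36 and 1.33 without either library. Here every Pdgfra-Cre:LmnaF/F library was above every WT library. Most of the level in this cluster came from Hist2h4, and without that gene the sum was 12.6, 19.6, 1.76 and 9.94 CPM in WT and 32.4, 51.5, 69.9 and 70.6 CPM in Pdgfra-Cre:LmnaF/F. Hist4h4, alone on chromosome 6, is described with the H4 genes. Hist3h2a, an H2A gene that overlaps Trim17 on the same strand, had no more than 9.59 CPM in any library, and was 1.87, 3.52, 0.64 and 0.21 CPM in WT and 0.83, 9.59, 0 and 5.08 CPM in Pdgfra-Cre:LmnaF/F.

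**Figure D2:**
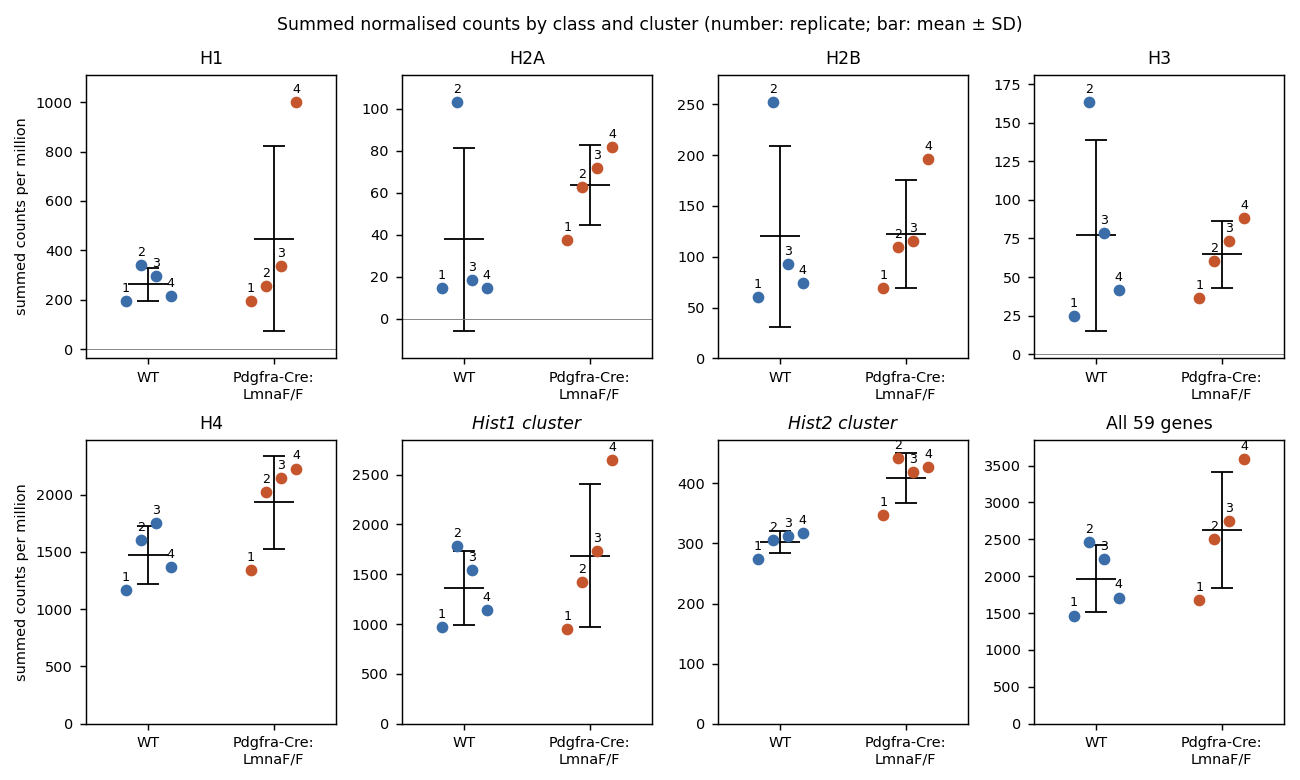
Summed CPM (y axis) is plotted for each histone class, the Hist1 and Hist2 clusters and all 59 genes, with points for libraries (numbered by replicate) and bars for the mean ± SD (n = 4). The Hist2 panel shows the Pdgfra-Cre:LmnaF/F libraries at 348 to 443 CPM, all above the WT libraries, while WT replicate 2 is the highest point for H2A, H2B and H3.

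Hist2h2ac encodes an H2A protein and lies on the minus strand at chr3:96220361-96220880 (mm10), next to the H2B gene Hist2h2be on the plus strand at chr3:96221119-96223738. It was 6.17, 11.6, 0.96 and 6.94 CPM in WT and 26.1, 50.2, 55.4 and 42.7 CPM in Pdgfra-Cre:LmnaF/F. All 4 Pdgfra-Cre:LmnaF/F libraries lay above the highest WT library. These values rest on 6 to 67 counts per WT library and 252 to 512 per Pdgfra-Cre:LmnaF/F library. The log2 fold change was 2.84 (SE 0.52), and was 3.18 without WT replicate 2 and 2.85 without Pdgfra-Cre:LmnaF/F replicate 4. The gene is called in the whole-table fit, but it is not called when WT replicate 1 or 4, or Pdgfra-Cre:LmnaF/F replicate 2 or 3, is left out, where the log2 fold change was 2.86, 2.92, 2.76 and 2.70. Nor is it called with the replicate number as a block (2.94) or after thinning to the lowest library total (2.89). Its coding sequence of 390 bases is 82.8% to 96.4% identical to the 17 other annotated H2A genes of the clusters, with a median of 91.1%. The closest were Hist2h2aa1 and Hist2h2aa2, which were not analysed here. The gene on its opposite strand is Gm44492.

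Hist2h2be, which reads away from Hist2h2ac, was 2.90, 1.01, 0 and 1.55 CPM in WT and 4.45, 0.10, 11.7 and 19.7 CPM in Pdgfra-Cre:LmnaF/F. Of these, 3 of the 4 Pdgfra-Cre:LmnaF/F libraries were above every WT library and replicate 2 was near 0. The log2 fold change was 2.66 (SE 1.21), with 1.94 without Pdgfra-Cre:LmnaF/F replicate 4, 3.37 without WT replicate 1 and 3.59 with 1 factor of unwanted variation (RUVr). The other H2A gene of the cluster, Hist2h2ab, had a log2 fold change of -0.07 (SE 1.39), with a range over libraries left out from -1.65 (without Pdgfra-Cre:LmnaF/F replicate 4) to 0.57 (without WT replicate 2). The H3 gene Hist2h3c2 had 0.76 (SE 1.43), and 1.38 without WT replicate 2. Both had mean levels below 3 CPM.

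The 238 bases between the annotated starts of Hist2h2ac and Hist2h2be are printed because both genes are read outward from this stretch (chr3:96220881-96221118, GRCm38.p6, plus strand, from RefSeq promoter sequence). Capitals mark the letters searched for on both strands, namely CCAAT, the octamer ATTTGCAT and TATAAA.
Hist2h2ac to Hist2h2be: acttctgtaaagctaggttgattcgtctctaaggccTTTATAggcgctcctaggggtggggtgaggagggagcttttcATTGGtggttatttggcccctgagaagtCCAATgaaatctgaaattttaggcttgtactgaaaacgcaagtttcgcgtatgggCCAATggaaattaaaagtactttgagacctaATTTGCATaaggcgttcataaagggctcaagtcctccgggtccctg
It holds 3 CCAAT letters, 1 octamer and 1 TATAAA. Across the members, 54 of 59 matched a RefSeq promoter window of 300 bases, and CCAAT was found in 45 of them (83.3%), against 37.4% of all 32851 windows. It was in every matched window of H1, H2A, H2B and H3 genes and in 3 of 12 windows of H4 genes. The octamer was found in 11 of 54 windows (20.4%, against 1.74% of all), in 6 H2A and 5 H2B genes and in none of the other classes. TATAAA was found in 32 of 54 (59.3%, against 13.6%). Windows of neighboring genes can overlap, as for Hist1h2ah with Hist1h2bk and Hist1h2ae with Hist1h2bg, so the same letters can be counted for both. The window matched to Hist1h1d lies 1770 bases from its annotated start. A match is a description of these letters and not a site of binding.

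**Figure D3:**
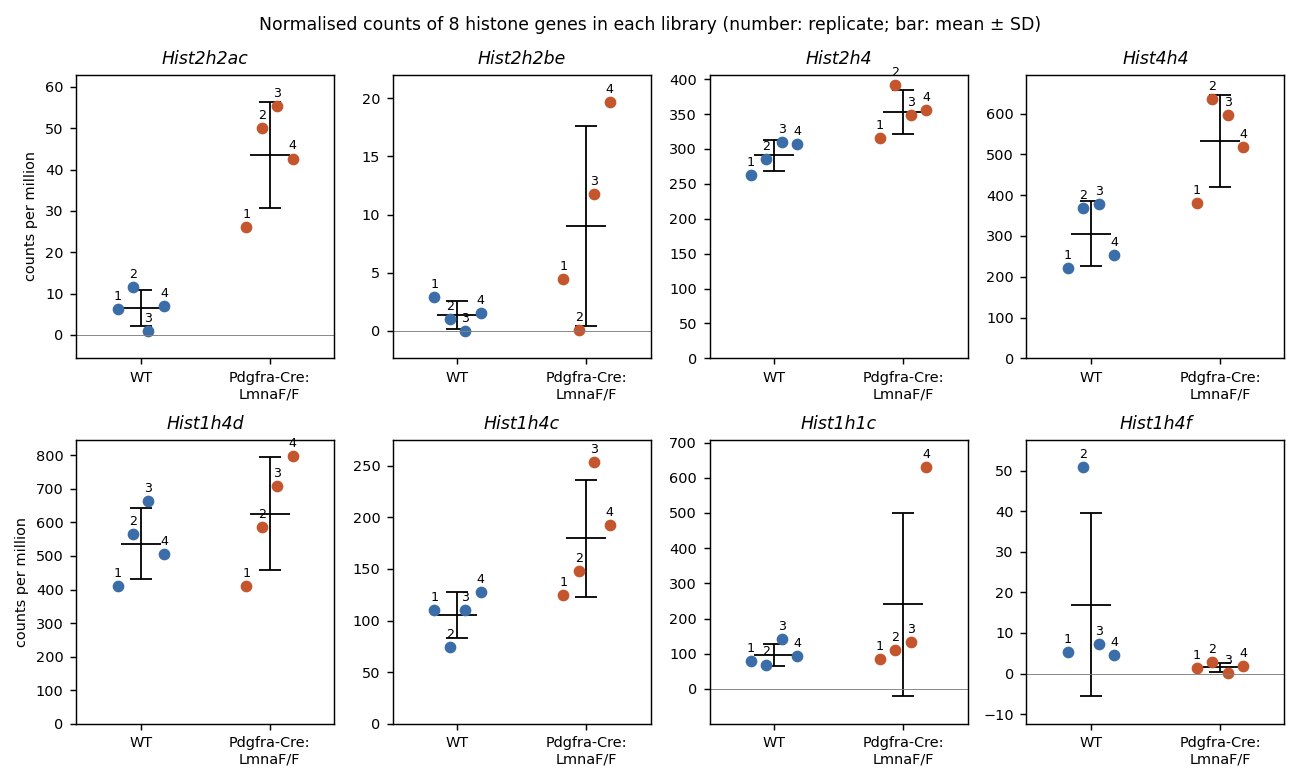
CPM (y axis) is plotted for 8 members in each library, with points numbered by replicate and bars for the mean ± SD (n = 4), which reach below 0 where a single library is far above the rest. Hist2h2ac, Hist2h4 and Hist4h4 show every Pdgfra-Cre:LmnaF/F library above WT, Hist1h1c is high in Pdgfra-Cre:LmnaF/F replicate 4 (630 CPM), and Hist1h4f is high in WT replicate 2 (50.8 CPM).

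H4 was the most abundant class, with 1170, 1599, 1748 and 1365 CPM in WT and 1340, 2018, 2146 and 2227 CPM in Pdgfra-Cre:LmnaF/F. The ratio of means was 1.31, and the groups overlapped through Pdgfra-Cre:LmnaF/F replicate 1. Of 12 tested H4 genes, 9 were higher and 3 lower, with a median log2 fold change of 0.25. Hist4h4 was 220, 369, 377 and 254 CPM in WT and 382, 635, 597 and 518 CPM in Pdgfra-Cre:LmnaF/F, a log2 fold change of 0.81 (SE 0.24). The lowest Pdgfra-Cre:LmnaF/F library was just above the highest WT library. Hist2h4, named after its values were seen, was 262, 286, 310 and 307 CPM in WT and 315, 391, 349 and 357 CPM in Pdgfra-Cre:LmnaF/F (log2 fold change 0.28, SE 0.18). It too did not overlap, by a narrow margin.

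Hist1h4c was 110, 74.0, 110 and 127 CPM in WT and 125, 148, 254 and 192 CPM in Pdgfra-Cre:LmnaF/F (log2 fold change 0.76, SE 0.24). Pdgfra-Cre:LmnaF/F replicate 1 fell within the WT range and the other 3 above it. Hist1h4d, the most abundant member, was 411, 565, 665 and 507 CPM in WT and 410, 586, 710 and 800 CPM in Pdgfra-Cre:LmnaF/F (0.22, SE 0.24, and 0.08 without replicate 4). Pdgfra-Cre:LmnaF/F replicates 3 and 4 were above every WT library, and the other 2 lay within or just below the WT range. Hist1h4f went the other way, with 5.23, 50.8, 7.35 and 4.56 CPM in WT and 1.24, 2.82, 0.12 and 1.92 CPM in Pdgfra-Cre:LmnaF/F. Every Pdgfra-Cre:LmnaF/F library was below every WT library. Its log2 fold change of -3.42 (SE 0.95) became -1.90 without WT replicate 2. Hist1h4j had a log2 fold change of -1.55 (SE 0.68), which became -0.48 without WT replicate 2, where it was 55.4 CPM, against at most 10.5 CPM in the other WT libraries. Among the remaining tested H4 genes, Hist1h4k had a log2 fold change of -0.86 (SE 0.62), which was -0.34 without WT replicate 2, and Hist1h4i, Hist1h4n, Hist1h4h, Hist1h4a and Hist1h4m ranged from 0.00 to 0.81, each with overlapping groups. Over the 8 fits that omit a library, Hist1h4i ranged from -0.48 (without Pdgfra-Cre:LmnaF/F replicate 4) to 0.46 (without WT replicate 3), Hist1h4a from -0.25 to 1.31 (the same 2 libraries) and Hist1h4n from -0.29 to 0.51 (without Pdgfra-Cre:LmnaF/F replicates 2 and 1). Hist1h4k, Hist1h4h and Hist1h4m kept their direction in these fits. Hist1h4h, the second gene by level per kilobase, was 89.2, 106, 131 and 92.3 CPM in WT and 66.6, 119, 157 and 186 CPM in Pdgfra-Cre:LmnaF/F.

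H1 linker histones summed to 196, 341, 297 and 215 CPM in WT and 195, 256, 337 and 1001 CPM in Pdgfra-Cre:LmnaF/F. The log2 ratio of the means was 0.77, and 0.0036 without Pdgfra-Cre:LmnaF/F replicate 4. Hist1h1c alone was 79.8, 69.4, 143 and 93.3 CPM in WT and 85.1, 111, 134 and 630 CPM in Pdgfra-Cre:LmnaF/F, and its log2 fold change of 1.31 (SE 0.51) was 0.19 without that library. The other 3 Pdgfra-Cre:LmnaF/F libraries lay within the WT range. Hist1h1e was 102, 122, 133 and 105 CPM in WT and 106, 133, 172 and 328 CPM in Pdgfra-Cre:LmnaF/F (0.68, SE 0.29, and 0.25 without replicate 4), and it overlaps Hist1h2be on the same strand, so their reads can be exchanged. The high values are in the library in which the myocyte markers summed to 2919 CPM and the leukocyte markers to 369 CPM, and whether those cells contribute them was not tested. Hist1h1a, Hist1h1b and Hist1h1d had log2 fold changes of -1.05, -2.12 and -0.76, and all 3 were highest in WT replicate 2. Without that library the values turned to 0.21, 0.65 and 0.32, and without Pdgfra-Cre:LmnaF/F replicate 4 they were -1.31, -3.12 and -1.44.

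H2A genes summed to 14.9, 103, 18.7 and 14.7 CPM in WT and 37.5, 62.6, 72.0 and 81.9 CPM in Pdgfra-Cre:LmnaF/F. WT replicate 2 was above all others, and the ratio of 1.68 became 3.95 without it. Hist2h2ac made up much of the class in Pdgfra-Cre:LmnaF/F. Without that gene the sums were 8.69, 91.6, 17.7 and 7.77 CPM in WT and 11.4, 12.4, 16.6 and 39.3 CPM in Pdgfra-Cre:LmnaF/F, a ratio of 0.63 that became 1.75 without WT replicate 2. Hist1h2ac, the next H2A gene by mean CPM, was 0.75, 9.56, 1.92 and 1.66 CPM in WT and 4.03, 2.71, 10.8 and 13.6 CPM in Pdgfra-Cre:LmnaF/F (log2 fold change 1.27, SE 0.90), and the value was 2.43 without WT replicate 2 and 0.83 without Pdgfra-Cre:LmnaF/F replicate 4. Of 14 H2A genes only 6 passed the filter, 4 of them higher and 2 lower.

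H2B genes summed to 60.8, 253, 92.7 and 74.4 CPM in WT and 69.1, 109, 116 and 196 CPM in Pdgfra-Cre:LmnaF/F, with a ratio of 1.02 that was 1.61 without WT replicate 2 and 0.82 without Pdgfra-Cre:LmnaF/F replicate 4. Of 11 tested genes, 4 were higher and 7 lower (median log2 fold change -1.69). Without WT replicate 2, more of these 11 were higher than lower. Hist1h2be was 13.7, 37.2, 23.3 and 24.6 CPM in WT and 18.5, 47.0, 46.1 and 60.6 CPM in Pdgfra-Cre:LmnaF/F (0.82, SE 0.37). Hist1h2bc was 22.5, 49.8, 17.9 and 22.2 CPM in WT and 27.7, 39.3, 31.7 and 72.3 CPM in Pdgfra-Cre:LmnaF/F (0.64, SE 0.37, and 0.26 without replicate 4). In both, the groups overlapped. Hist1h2bb was 2.43, 49.8, 24.0 and 6.94 CPM in WT and 3.93, 6.57, 2.65 and 10.6 CPM in Pdgfra-Cre:LmnaF/F, and its log2 fold change of -1.76 (SE 0.75) was -0.90 without WT replicate 2. WT replicates 2 and 3 were the highest libraries. The other negative values in the class, for Hist1h2bf, Hist1h2bl, Hist1h2bm, Hist1h2bn, Hist1h2bh and Hist1h2bj, ranged from -2.74 to -0.24. Of these, all but Hist1h2bl were highest in WT replicate 2. Without that library Hist1h2bh turned to 1.05 (it was -3.71 without Pdgfra-Cre:LmnaF/F replicate 2) and Hist1h2bj to 1.90, whereas the other 4 ranged from -2.25 to -0.99. Without Pdgfra-Cre:LmnaF/F replicate 4, Hist1h2bj turned to 0.18. Hist1h2bf, Hist1h2bl and Hist1h2bm then had 3, 0 and 9 counts left over the other 3 Pdgfra-Cre:LmnaF/F libraries, too few for a fold change. Hist1h2bg had 0.46 (SE 0.60), with 0.69 and 0.18 without either library.

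H3 genes summed to 24.5, 164, 78.8 and 41.3 CPM in WT and 36.6, 60.6, 73.6 and 88.3 CPM in Pdgfra-Cre:LmnaF/F. The ratio of 0.84 turned to 1.34 without WT replicate 2. Hist1h3f was 3.74, 28.2, 27.0 and 6.63 CPM in WT and 17.0, 32.9, 26.3 and 34.9 CPM in Pdgfra-Cre:LmnaF/F (0.80, SE 0.54), and Hist1h3e had a log2 fold change of 0.12 (SE 0.38), which was -0.06 without Pdgfra-Cre:LmnaF/F replicate 4. Hist1h3h and Hist1h3i, both highest in WT replicate 2, had -1.16 (SE 1.09) and -1.12 (SE 1.14), and Hist1h3a had -0.09 (SE 0.81). Without WT replicate 2 these were -0.30, 0.81 and 0.95, so that the direction turned for Hist1h3i and Hist1h3a. Hist1h3a was also above 0 without Pdgfra-Cre:LmnaF/F replicate 2 or 3, and -0.59 without replicate 4.

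The 19 members below the filter summed to 8.22, 108, 18.1 and 7.97 CPM in WT and 3.10, 0.73, 5.87 and 16.4 CPM in Pdgfra-Cre:LmnaF/F, and WT replicate 2 was the highest library for 10 of them. Among them, 6 members had no count in any Pdgfra-Cre:LmnaF/F library, and none had no count in every WT library. These were looked at after their values were seen. Hist1h3c was 0, 28.7, 8.31 and 1.35 CPM in WT, which is at least 31.5-fold above a floor of 3 counts per Pdgfra-Cre:LmnaF/F library (0.305 CPM on average), or at least 10.6-fold without WT replicate 2. Hist1h3b was 1.31, 15.1, 0.80 and 1.14 CPM in WT, at least 15.1-fold above that floor, or 3.55-fold without WT replicate 2. Hist1h3g was at least 9.26-fold above it, or 4.64-fold without WT replicate 2. For Hist1h2ba the bound was 3.94, or 1.57 without WT replicate 1, which holds most of its counts. For Hist1h2af the bound was 3.30, and all its WT counts came from WT replicate 2. Hist1h2an gave no bound.

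Grouped by model length, most long models that passed the main count filter had positive values and most short ones negative values. Of 18 tested genes with 300 or more bases after the stop codon, 15 were higher and 3 lower (median log2 fold change 0.72). Of 22 tested genes with shorter models, 7 were higher and 15 lower (median -0.96). With at least 10 counts in every library, 6 of 8 short models were higher (median 0.30) and 11 of 13 long ones (median 0.66). After thinning to the lowest library total, 5 of 9 short models were higher (median 0.30) and 10 of 13 long ones (median 0.63). Long models also reached higher levels, with mean CPM of up to 582 against 118 for short ones. When WT replicate 2 was left out, 17 of 19 long models were higher (median 0.90), whereas 13 of 22 short ones were higher and 9 lower (median 0.22). When Pdgfra-Cre:LmnaF/F replicate 4 was left out, 13 of 18 long models were higher (median 0.26) and 6 of 24 short ones (median -1.51). Long models summed to 1281, 1772, 1891 and 1510 CPM in WT and 1520, 2194, 2411 and 3137 CPM in Pdgfra-Cre:LmnaF/F. Short models summed to 186, 687, 343 and 201 CPM in WT and 159, 313, 333 and 458 CPM in Pdgfra-Cre:LmnaF/F. The short sum was highest in WT replicate 2, and the long sum in Pdgfra-Cre:LmnaF/F replicate 4. Hist2h2ac, with 94 bases after its stop codon, was the short model with the highest log2 fold change.

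WT replicate 2 stood apart for many members at once. It was the highest library for 26 of the 59 members, 10 of them below the count filter, and for 14.5% of all tested genes. The next was Pdgfra-Cre:LmnaF/F replicate 4, highest for 16 members, 3 of them below the filter, and 17.3% of all tested genes. After every library was thinned to the total of WT replicate 2, members with over 3 counts numbered 28, 48, 32 and 28 in WT and 29, 28, 30 and 33 in Pdgfra-Cre:LmnaF/F, so the count was highest in the shallowest library. Summed CPM of the 15 G2/M genes, which drive entry into and passage through mitosis, was 33.1, 400, 140 and 38.5 in WT and 25.0, 13.7, 31.9 and 40.2 in Pdgfra-Cre:LmnaF/F. The same 2 WT libraries, replicates 2 and 3, were highest for the G2/M genes and 2 of the 3 highest for the short histone models. The part of cycling cells in these values was not tested.

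**Figure D4:**
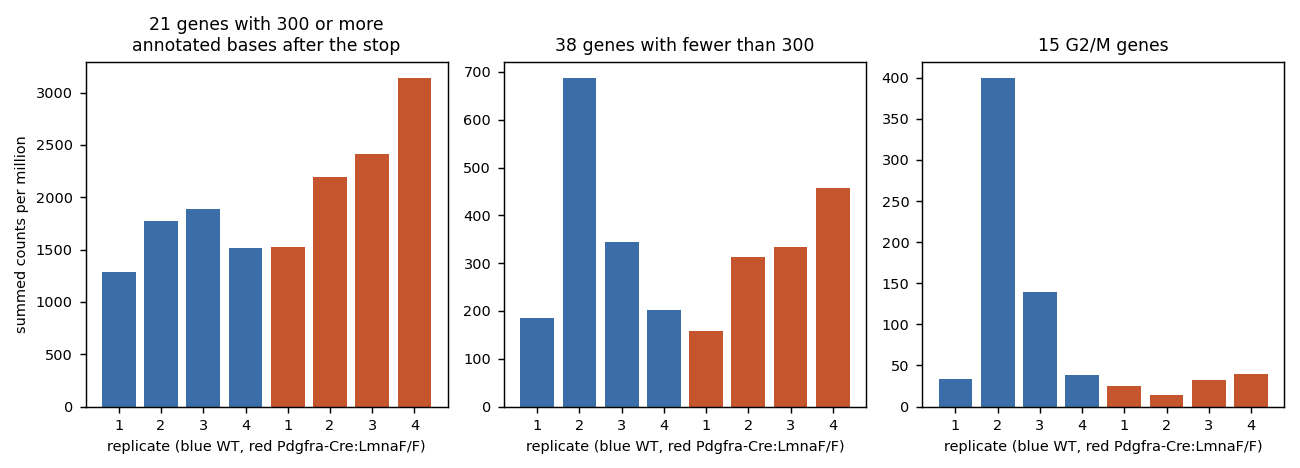
Summed CPM (y axis, from 0) is drawn as a bar for each library (x axis, replicates 1 to 4 of WT in blue and of Pdgfra-Cre:LmnaF/F in red) for members with long models, members with short models and 15 G2/M genes. WT replicate 2 has the tallest bar for short models (687 CPM) and for G2/M genes (400 CPM), and Pdgfra-Cre:LmnaF/F replicate 4 has the tallest for long models (3137 CPM).

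None of the genes on 5 related lists was called by edgeR at an adjusted p under 0.05 with the count filter. Without the filter edgeR called 2 G2/M genes lower (Mki67 and Top2a), and DESeq2 called 3 G2/M genes, 1 replacement histone gene and none of the other 3 lists. The counts at an unadjusted p under 0.05 given for these lists stand against 11.9% of all tested genes. In G2/M genes, 12 of 13 tested were lower and 1 higher (median log2 fold change -1.94), and 6 were lower at an unadjusted p under 0.05, against 1 when WT replicate 2 was left out. Those called by DESeq2 were lower (Ccnb2, Cdk1 and Mki67). Mki67, a marker of cycling cells, was 9.44, 80.5, 15.2 and 3.62 CPM in WT and 0.10 to 3.34 CPM in Pdgfra-Cre:LmnaF/F, a log2 difference of -3.91 (SE 0.94, edgeR adjusted p = 0.103). Every WT library was above every Pdgfra-Cre:LmnaF/F library, and the value was -2.42 without WT replicate 2. Ccnb2, a mitotic cyclin, stood at -4.14 on the log2 scale (edgeR adjusted p = 0.257), or -6.09 without Pdgfra-Cre:LmnaF/F replicate 1, where 2 counts are left in that group, and Cenpf, a kinetochore protein, one of -2.49 (edgeR adjusted p = 0.267), which was -1.41 without WT replicate 2.

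In contrast, of 22 tested S-phase genes 9 were higher and 13 lower (median log2 fold change -0.16), with 1 at an unadjusted p under 0.05. This was Pcna, the clamp of the replicative polymerases, with 73.7, 62.9, 39.3 and 71.5 CPM in WT and 79.2, 115, 123 and 75.3 CPM in Pdgfra-Cre:LmnaF/F (log2 fold change 0.66, edgeR adjusted p = 0.303). Mcm2, of the replicative helicase, had -1.36 (edgeR adjusted p = 0.464), or -2.12 without Pdgfra-Cre:LmnaF/F replicate 1. The G1/S cyclin gene Ccne2 had -2.41 (edgeR adjusted p = 0.552), or -3.66 without Pdgfra-Cre:LmnaF/F replicate 3. Without WT replicate 2, more of the 22 S-phase genes were higher than lower. Mcm3 (0.04), Mcm4 (0.17), Cdc6 (0.62) and Uhrf1 (0.54) then turned from negative to positive.

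Among 11 replacement histone genes, 7 were higher and 4 lower, and 2 were higher at an unadjusted p under 0.05. H3f3b, which encodes H3.3, was 276, 157, 209 and 268 CPM in WT and 361, 355, 381 and 457 CPM in Pdgfra-Cre:LmnaF/F (log2 fold change 0.77, SE 0.21, edgeR adjusted p = 0.151). It did not overlap between genotypes, and DESeq2 called it. H3f3a, a second H3.3 gene, had -0.12 (edgeR adjusted p = 0.876). H2afz, the gene of H2A.Z, was 21.4, 15.6, 24.5 and 17.7 CPM in WT and 23.9, 57.0, 42.4 and 48.3 CPM in Pdgfra-Cre:LmnaF/F (1.11, SE 0.30, edgeR adjusted p = 0.145). Cenpa, the centromeric H3, had -1.07 (edgeR adjusted p = 0.666), which was -0.36 without WT replicate 2.

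Of 16 tested genes that process or regulate histone mRNA, 11 were higher and 5 lower, with 2 higher at an unadjusted p under 0.05. These were Casp8ap2, which is needed at histone locus bodies (log2 fold change 0.72, edgeR adjusted p = 0.314), and Slbp, which binds the hairpin (0.69, edgeR adjusted p = 0.336). Cstf2, a cleavage factor, had 0.51 (edgeR adjusted p = 0.521). Of 16 tested histone chaperones, 10 were higher and 6 lower, with 2 higher and 1 lower at an unadjusted p under 0.05. On the log2 scale Npm1 stood at 0.60 (edgeR adjusted p = 0.242), Set one of 0.55 (edgeR adjusted p = 0.307) and Hjurp, the chaperone of CENPA, one of -0.65 (edgeR adjusted p = 0.387).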

How the data were processed

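Total RNA from sorted PDGFRA+ cells (RIN over 8) was sequenced as 4 WT and 4 Pdgfra-Cre:LmnaF/F libraries, stranded and depleted of ribosomal RNA, with 150 bp paired-end reads. HISAT2 (genome mm10) and featureCounts (GENCODE genes) were the authors' aligner and counter. The deposited values are whole-number counts per gene, not normalized, and the factor removal (RUV) and DESeq2 steps of the study are not in them. Each file holds 1 sample, and no labels tie replicate numbers to a litter or day. The labels do not say which mouse each library came from, so p-values measure only the spread between these libraries, which may be technical.

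Counts were filtered with filterByExpr, scaled by TMM and tested with edgeR's quasi-likelihood test (edgeR 4.0.16, R 4.3.3) for genotype, with Benjamini-Hochberg adjustment and a threshold of 0.05. Of 18957 genes listed, 13036 were tested and 53 called, 22 higher and 31 lower. Log2 fold changes are Pdgfra-Cre:LmnaF/F minus WT, and SE is the log2 fold change divided by the square root of the F statistic. CPM were computed on TMM-scaled library sizes, summed over gene groups, and divided by exonic length where levels of genes are compared. Coordinates and gene models came from GENCODE M21 (mm10) and promoter windows from RefSeq (GRCm38.p6). The fit was tested on simulated data before use. Bounds cover counting error only.

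Named genes were Lmna, members with an unadjusted p under 0.05, the 2 members of each class with the highest mean CPM, and the 3 genes of lowest p in each related list. The members, the lists and the alternatives were chosen with earlier results of these data known. Alternatives were DESeq2 1.42.0, RLE factors, no filter, at least 10 counts in every library, 1 RUVr factor, a replicate block, libraries thinned to the lowest total, and each library left out.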

Additional observations from a re-analysis of the deposited data

Results flagged for a closer look

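Of 92 groups of 4 libraries examined (gene sums and named genes), 11 had 1 library far from the others, with a gap above Dixon's 95% critical value. Chance gives about 1 in 20 such groups if the values are normally distributed, which was not checked for CPM. The groups also share libraries and genes. WT replicate 2 was the library in 9 of them. Among histone genes these were the sum of the H2A genes (103 CPM), the sum of the H2B genes (253 CPM), Hist1h4f (50.8 CPM), Hist1h4j (55.4 CPM), Hist1h2ac (9.56 CPM) and Hist1h2bc (49.8 CPM). Among related genes they were the sum of the S-phase genes (407 CPM), Mki67 (80.5 CPM) and Ccnb2 (10.6 CPM).

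Pdgfra-Cre:LmnaF/F replicate 4 was the library in the other 2. Hist1h1c was 630 CPM there, the highest of its group, and the chaperone gene Set was 80.1 CPM, the lowest of its group.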

How the results depend on the processing

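The count of all called genes was 53 and became 303 with DESeq2, 274 with no filter, 81 with 1 RUVr factor and 22 after thinning, and ranged from 13 to 76 with a library left out. The count of called histone genes was 1 (Hist2h2ac) and became 2 with DESeq2 (adding Hist4h4), 5 with no filter (Hist1h1c, Hist1h3b, Hist1h3c and Hist1h4f besides), and 0 with at least 10 counts in every library, where Hist2h2ac is not tested, and 0 after thinning. It ranged from 0 to 1 with a library left out. Replacement histone genes called were 1 with DESeq2, and G2/M genes called were 3 with DESeq2 and 2 with no filter. With the replicate number as a block, 36 genes and 0 histone genes were called, and Hist2h2ac had a log2 fold change of 2.94. The same-number correlations of deviations were -0.027, -0.0298, -0.00406 and 0.0396, and 1 of 4 WT libraries correlated best with its own number. These values cannot show whether same-numbered libraries share a litter or day, which the labels do not give.

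The median log2 fold change of short models was -0.96 over 22 genes. It was 0.30 over the 8 genes left with at least 10 counts in every library, 0.30 over the 9 left after thinning, so over fewer genes, and 0.22 over 22 without WT replicate 2, with a range of -1.51 to 0.22 over the libraries left out. The log2 ratio of the summed Hist2 level was 0.44, and 2.35 without Hist2h4. For H2A it was 0.75, and -0.66 without Hist2h2ac, with a range of 0.48 to 1.98 over the libraries left out. Hist1h3e, at 0.12, ranged from -0.094 to 0.33 with a library left out, and was below 0 without WT replicate 1 or Pdgfra-Cre:LmnaF/F replicate 3 or 4. The causes were not tested. Of 448 alternative values for named genes, 432 kept their direction and their side of the threshold, 6 lost the call (all of Hist2h2ac), 7 gained one and 3 turned (all of Hist1h3e). In the main fit only Lmna and Hist2h2ac of the named genes were called. For the others, keeping their side means staying uncalled. Sizes could still change, as for Hist1h1c (1.31, and 0.19 without Pdgfra-Cre:LmnaF/F replicate 4). Mki67, Ccnb2, Ccne2, Hist1h4f, Hist1h2ac and Hist2h2be gave no value under the filter of 10 counts or after thinning, Hist2h2ac none under that filter and Cenpf none after thinning, and DESeq2 gave no adjusted p for Ccne2, Hist1h4f and Hist1h1c. Cuts at 200 or 500 bases after the stop codon, added after the data were seen, gave medians of 0.68 and 0.76 for long models and -1.05 and -0.24 for short ones. WT replicate 2, with 2080555 counts, limits the precision of every low value.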
